A study of Mus musculus with 6 samples.

Results

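The immediate early and dissociation response genes examined here were Fos, Fosb, Jun, Junb, Jund, Egr1, Egr2, Egr3, Ier2 and Ier3. Every probe set that names exactly 1 gene, and for which that gene is one of these 10, was taken from the deposited array values. This gave 14 of the 45037 probe sets tested, and 10 of the 18193 genes the array names in this way. Jun, Jund, Egr2 and Egr3 have 2 probe sets each and the other 6 genes have 1. Where a gene has 2, they are called the brighter and the dimmer by their mean over all arrays.

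RNA was measured in 3 Pogz-/- and 3 Pogz+/+ fetal livers (FL) at E14.5 (days of embryonic development), 1 array per liver. All embryos were of the C57BL/6 strain, made congenic by over 10 generations of backcrossing. The Pogz-/- allele lacks the last exons of Pogz, which encode its CENPB and DDE domains and some of its zinc fingers. It was made with a β-actin-cre transgene, so Pogz was lost in the whole embryo and not in blood cells alone. For the arrays, the study's methods state only that RNA was isolated from the fetal livers. For transplantation, they describe livers broken up in cold buffered saline and strained into single cells. Whether the livers on the arrays were handled in this way is not stated there. How long each liver was handled is not given in the sources used here.

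Immediate early genes are transcribed within minutes of a stimulus, with no need for new protein, because the factors that switch them on are already bound or waiting in the cell. Growth factor signals reach them through MAP kinases, the ternary complex factors and serum response factor, and cAMP or calcium signals through CREB. Cutting, straining or warming a tissue can switch on the same genes, so in dissociated samples they are also read as a sign of handling. FOS and JUN family proteins pair to form the transcription factor AP-1, EGR proteins are zinc finger transcription factors, and IER2 and IER3 are small proteins induced in the same wave.

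The promoters of Fos, Fosb, Jun and Junb are shown because all probe sets of these 4 genes were highest in the same Pogz-/- liver, as given below. The sequences are from RefSeq on GRCm38.p6 and run from 250 bases before to 50 bases after the annotated start, on the strand of the gene. They lie at chr12:85473640-85473939 (plus strand) for Fos, chr7:19309996-19310295 (minus strand) for Fosb, chr4:95052173-95052472 (minus strand) for Jun and chr8:84978699-84978998 (minus strand) for Junb. Capitals mark matches, on either strand, to TGACG, the core that CREB and ATF factors bind, to TGACNTCA, an AP-1 or ATF element in which N is any base, and to TATAA, the TATA box core.
Fos: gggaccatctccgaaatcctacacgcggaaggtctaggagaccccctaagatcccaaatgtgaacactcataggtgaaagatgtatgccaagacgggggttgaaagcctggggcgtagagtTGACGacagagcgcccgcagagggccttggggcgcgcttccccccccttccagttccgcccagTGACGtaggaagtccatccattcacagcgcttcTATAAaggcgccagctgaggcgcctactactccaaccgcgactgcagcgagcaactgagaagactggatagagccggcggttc
Fosb: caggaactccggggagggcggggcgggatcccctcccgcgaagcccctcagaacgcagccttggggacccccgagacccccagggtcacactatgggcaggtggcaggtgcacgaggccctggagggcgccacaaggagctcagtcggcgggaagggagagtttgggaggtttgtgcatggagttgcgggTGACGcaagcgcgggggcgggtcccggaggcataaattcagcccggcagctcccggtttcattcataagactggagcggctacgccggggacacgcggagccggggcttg
Jun: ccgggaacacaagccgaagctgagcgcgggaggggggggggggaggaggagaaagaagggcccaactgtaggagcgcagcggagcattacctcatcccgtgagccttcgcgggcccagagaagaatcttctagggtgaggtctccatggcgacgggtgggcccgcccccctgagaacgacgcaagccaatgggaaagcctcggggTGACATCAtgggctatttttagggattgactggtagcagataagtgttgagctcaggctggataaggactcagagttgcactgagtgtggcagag
Junb: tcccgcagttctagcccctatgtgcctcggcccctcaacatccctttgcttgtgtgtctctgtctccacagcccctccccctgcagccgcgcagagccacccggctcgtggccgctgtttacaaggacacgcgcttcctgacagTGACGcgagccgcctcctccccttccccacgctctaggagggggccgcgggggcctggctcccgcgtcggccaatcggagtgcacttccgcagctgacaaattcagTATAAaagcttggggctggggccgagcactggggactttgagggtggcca

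TGACG stood 129 and 66 bases before the start of Fos, 60 bases before that of Fosb and 106 bases before that of Junb, and 20.8% of the 32851 promoters in the table hold it. Jun had no TGACG match in this window and had a TGACNTCA match 45 bases before its start, which 8.83% of promoters hold. A TATAA match, present in 24.9% of promoters, stood 33 bases before the start of Fos and at the annotated start of Junb. The CArG box, to which serum response factor binds, matched 4 of the 5 Egr2 promoters and none of the 4 printed ones, and 1.63% of all promoters hold it. Some of the Egr2 windows overlap and share the same site, so these matches are not independent. Sites more than 250 bases before a start were not looked for. Jund had no match to any of these motifs and Ier3 a TATAA match only. TGACG and TGACNTCA share letters, so that 1 stretch can match both. The table has no entry for Ier2 or Egr3. These matches are letters in a window and were not measured as bound sites.

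None of the 14 probe sets passed the test between Pogz-/- and Pogz+/+ FL over all 6 arrays (limma, p adjusted over all probe sets, threshold 0.05). Their adjusted p ran from 0.438 to 0.906, and 0 of 14 had an unadjusted p under 0.05. Over the whole array the share called was also 0.0%, while an unadjusted p under 0.05 was found for 5280 (11.7%). By arrays that do not overlap between genotypes, 3 of 14 were higher in Pogz-/- FL, against 9.1% of all probe sets, and 3 of 14 were lower, against 15.8%. Those lower include the dimmer Egr2 probe set, from which no level is read below. With 3 livers against 3 an exact permutation test of a single value cannot go below p = 0.1. In 12 of 14 probe sets the difference was smaller than the wider of the 2 ranges within a genotype, as in 88.8% of all probe sets. The 2 exceptions were the brighter probe set of Jund and the probe set of Egr1.

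**Figure D1:**
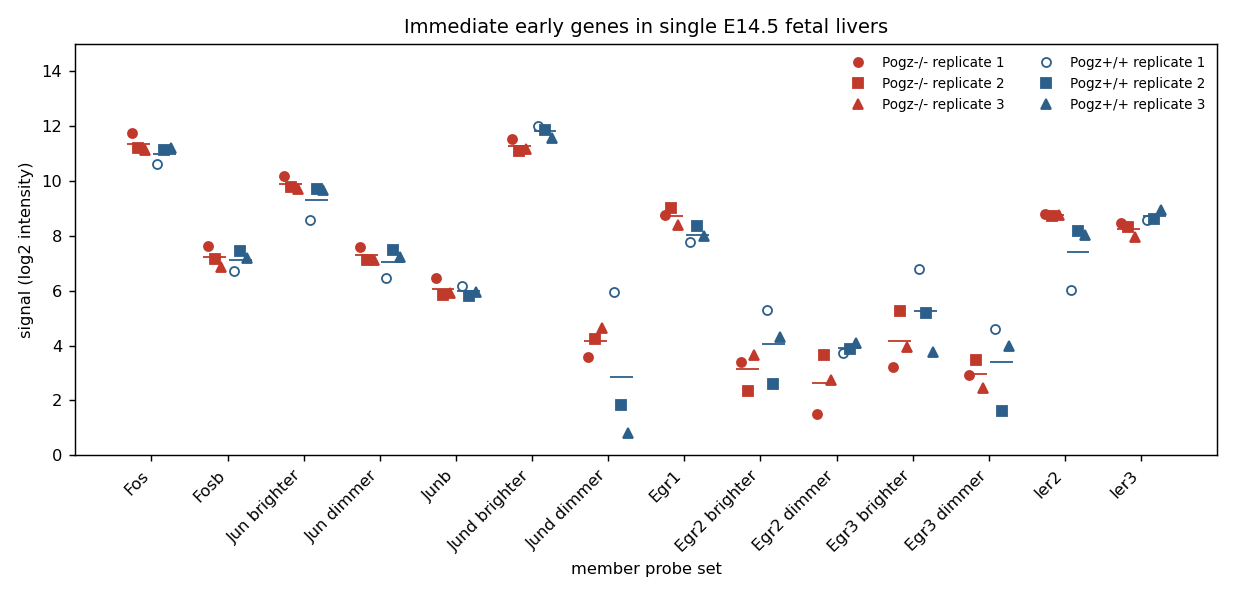
Signal (log2 intensity, vertical axis) of the 14 probe sets in each liver, with Pogz-/- in red to the left and Pogz+/+ in blue to the right of each position, symbols for the replicates and a line at each mean of 3. Pogz+/+ replicate 1 (open circles) is the lowest of all arrays for Ier2 at 6.04, and the dimmer Jund probe set runs from 0.80 to 5.96 in Pogz+/+.

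One array stood apart, and the values that touch the members are these. In Pogz+/+ replicate 1 the 3′ probe set of β-actin was 52.3 times its 5′ probe set, against 3.72 to 4.09 in Pogz-/- FL and 5.5 and 6.63 in the other Pogz+/+ FL. For Gapdh the same ratio was 4.87 to 5.08 in Pogz-/- FL, and 15.3, 7.37 and 9.29 in Pogz+/+ replicates 1, 2 and 3. A high ratio is a known sign of shortened RNA or incomplete copying. Across probe sets, which are not independent, its log2 values had r = 0.794 to 0.81 with those of the other 5 arrays, and its median intensity was 54.3, against 29.7 to 37.5 in the other 5. Results are therefore given with it and without it. Leaving it out does not make the genotypes alike in these measures. In the other 5 arrays both ratios were still higher in Pogz+/+ FL than in any Pogz-/- FL. The median intensity was 37.5 and 35.9 in Pogz+/+ replicates 2 and 3, against 29.7 to 31.5 in Pogz-/- FL. The part of this in the differences below, also those without Pogz+/+ replicate 1, was not tested. Markers of the main cells of a fetal liver were high: Klf1, an erythroid transcription factor, read 12.79 to 12.82 in Pogz-/- FL and 13.09 to 13.3 in Pogz+/+ FL on the log2 scale, and Afp, made by hepatoblasts, 13.6 to 14.02 in Pogz-/- FL and 14.37 to 15.4 in Pogz+/+ FL.

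The scale of the arrays also matters for the sign of small differences. Each array was scaled to an equal trimmed mean, and on that scale the median difference, Pogz-/- minus Pogz+/+, was -0.23 over all probe sets and 0.10 over the 14 member probe sets. Quantile normalization put the median of all probe sets at 0.0 and median centring at 0.23. Of the member probe sets, 8 had a positive and 6 a negative difference on the deposited scale, 9 and 5 after quantile normalization, and 10 and 4 after median centring. Of the 9 at or above 4.91, the median of all probe set means, 7 were positive and 2 negative on the deposited scale. The other 5 are dim, and no level is read from them below. Without Pogz+/+ replicate 1 the medians were 0.05 for the members and -0.13 for all probe sets, and 7 member differences were positive and 7 negative.

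Ier2, which encodes a small nuclear protein induced by growth factors and lies at chr8:84661331-84662852, had the widest gap between genotypes among the brighter members. It read 8.80, 8.73 and 8.77 in Pogz-/- FL (log2; intensities of 445, 425 and 436), against 6.04, 8.18 and 8.05 in Pogz+/+ FL (65.8, 290 and 265). All 3 Pogz-/- livers lay above all 3 Pogz+/+ livers, the Pogz-/- livers were nearly equal, and Pogz+/+ replicate 1 lay far below both others of its genotype. The means were 8.77 ± 0.03 in Pogz-/- FL and 7.42 ± 1.20 in Pogz+/+ FL (SD, n = 3 each), a difference of 1.34 with an SE of 0.62 (2.53-fold, limma adjusted p = 0.444). The 6.04 in Pogz+/+ replicate 1 lies within the range of the background reference genes of that array (1.11 to 6.37), and the fold rests on it.

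Without Pogz+/+ replicate 1, and with a prior variance that follows signal level and a robust fit (limma with trend and robust), Ier2 was higher in Pogz-/- FL by 0.65 with an SE of 0.13 (1.57-fold, adjusted p = 0.026). Thus 1 of the 14 probe sets was called, against 1.45% of all probe sets called higher and 1.22% called lower in that fit. On the same 5 arrays the difference was 0.59 after quantile normalization (adjusted p = 0.044) and 0.92 after median centring (adjusted p = 0.00299). The call was lost in the fit with constant prior variance on those arrays (adjusted p = 0.394), in the trend and robust fit that keeps all 6 arrays (adjusted p = 0.244), and when any other array was left out in place of replicate 1 (adjusted p = 0.169 to 0.505). The 2 Pogz+/+ livers that remain differed by 0.13, which is the only measure of their spread.

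Among the AP-1 subunits, Fos, the inducible partner of JUN proteins, read 11.74, 11.20 and 11.14 in Pogz-/- FL and 10.61, 11.14 and 11.22 in Pogz+/+ FL. Pogz-/- replicate 1 was the highest and Pogz+/+ replicate 1 the lowest of the 6, and the other 4 livers lay within 0.08 of each other. The difference was 0.37 with an SE of 0.31 (adjusted p = 0.612), and 0.18 without Pogz+/+ replicate 1. Fosb, a close relative of Fos, read 7.65, 7.15 and 6.88 in Pogz-/- FL and 6.72, 7.45 and 7.21 in Pogz+/+ FL. The same 2 livers were the extremes, and the difference was 0.10 with all arrays and -0.10 without Pogz+/+ replicate 1.

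The brighter probe set of Jun, the main partner of FOS, read 10.18, 9.78 and 9.70 in Pogz-/- FL and 8.58, 9.70 and 9.67 in Pogz+/+ FL. The genotypes did not overlap, but the lowest Pogz-/- liver and the highest Pogz+/+ liver were equal to 2 decimals. The difference was 0.57 with an SE of 0.40 (adjusted p = 0.549), and 0.20 without Pogz+/+ replicate 1. The dimmer Jun probe set read 7.61, 7.14 and 7.14 in Pogz-/- FL and 6.48, 7.49 and 7.23 in Pogz+/+ FL, and its genotypes overlapped. Both Jun probe sets had Pogz-/- replicate 1 as the highest and Pogz+/+ replicate 1 as the lowest liver. Junb, a JUN family member that often acts against JUN in growth, read 6.48, 5.85 and 5.92 in Pogz-/- FL and 6.16, 5.81 and 5.97 in Pogz+/+ FL. Its genotypes overlapped and its difference was 0.10 with an SE of 0.29, and its Pogz+/+ values lie within the range of the background reference genes given below.

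Jund, the JUN family member that is expressed steadily in most cells, differed in sign from Fos and Jun. Its brighter probe set read 11.53, 11.09 and 11.17 in Pogz-/- FL and 12.00, 11.85 and 11.58 in Pogz+/+ FL. All Pogz-/- livers lay below all Pogz+/+ livers, by 0.05 at the nearest pair. The difference was -0.55 with an SE of 0.27 (adjusted p = 0.457) and stayed negative at -0.45 without Pogz+/+ replicate 1 (adjusted p = 0.112), -0.47 after quantile normalization and -0.09 after median centring. The dimmer Jund probe set read 3.60, 4.24 and 4.65 in Pogz-/- FL and 5.96, 1.85 and 0.80 in Pogz+/+ FL. It overlapped between genotypes, with a difference of 1.29 and an SE of 1.36, and its values lie near background, so it gives no check on the brighter one.

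Egr1, the growth factor and stress induced EGR protein, read 8.76, 9.03 and 8.39 in Pogz-/- FL and 7.77, 8.37 and 8.0 in Pogz+/+ FL. The genotypes did not overlap, and the nearest pair of livers lay 0.03 apart. The difference was 0.68 with an SE of 0.30 (1.6-fold, adjusted p = 0.438), 0.54 without Pogz+/+ replicate 1 (adjusted p = 0.194), 0.59 after quantile normalization and 1.14 after median centring. With median centring and without Pogz+/+ replicate 1 it was 0.82 and passed the threshold (adjusted p = 0.0194), which no other setting tried gave.

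Egr2, known for its part in hindbrain and Schwann cell development, and Egr3, known in muscle spindles and T cells, were dim on all 4 of their probe sets. The brighter Egr2 probe set ran from 2.35 to 3.66 in Pogz-/- FL and from 2.59 to 5.29 in Pogz+/+ FL, and the dimmer one from 1.52 to 3.67 in Pogz-/- FL and from 3.74 to 4.11 in Pogz+/+ FL. The 2 Egr3 probe sets ran from 2.45 to 5.28 in Pogz-/- FL and from 1.60 to 6.79 in Pogz+/+ FL. Apart from 6.79 for the brighter Egr3 probe set in Pogz+/+ replicate 1, these values lie in the range of 10 genes of retina, lens, kidney, pituitary and mammary gland that serve as a background reference, which read 0.48 to 5.56 (median 3.82) in Pogz-/- FL and -0.30 to 6.58 (median 4.51) in Pogz+/+ FL. The dimmer Jund probe set lies there too, and detection calls were not used here, so no level is read from these 5 probe sets. Junb in Pogz+/+ FL and Ier2 in Pogz+/+ replicate 1, whose own reference genes read 1.11 to 6.37, also lie within the reference range. The dimmer Egr2 probe set did not overlap between genotypes (difference -1.27, SE 0.57, adjusted p = 0.439).

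Ier3, a stress induced protein that bears on cell survival, read 8.49, 8.31 and 7.96 in Pogz-/- FL and 8.58, 8.62 and 8.93 in Pogz+/+ FL. All Pogz-/- livers lay below all Pogz+/+ livers, by 0.09 at the nearest pair. The difference was -0.46 with an SE of 0.27 (adjusted p = 0.502), -0.52 without Pogz+/+ replicate 1 (adjusted p = 0.176), -0.56 after quantile normalization and 0.00 after median centring. Ier2 and Ier3 thus had differences of opposite sign on the deposited scale.

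**Figure D2:**
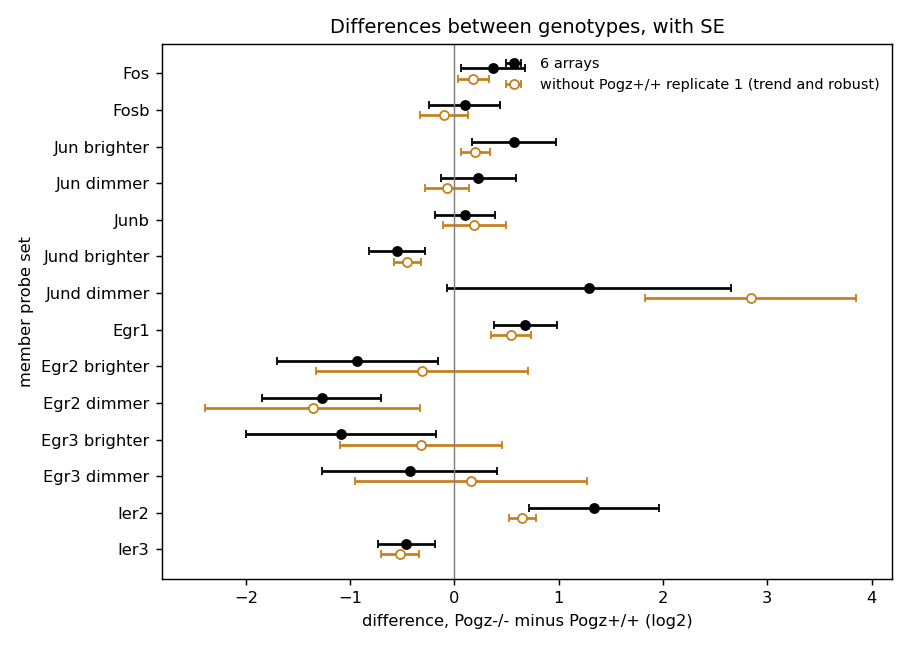
Difference between genotypes (log2, Pogz-/- minus Pogz+/+, horizontal axis) for each of the 14 probe sets, with bars of 1 SE, over 6 arrays (filled) and without Pogz+/+ replicate 1 (open). The Ier2 difference is 1.34 with all arrays and 0.65 without that array, where its SE is 0.13, and the dimmer Jund probe set has the widest bar over 6 arrays.

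Without Pogz+/+ replicate 1, 4 of the 14 probe sets were higher in Pogz-/- FL with no overlap, against 13.0% of all probe sets, and 3 were lower, against 21.0%. The 4 were the brighter Jun, Egr1, Ier2 and the dimmer Jund probe set, and the 3 were the brighter Jund, the dimmer Egr2 and Ier3. The dimmer Jund and dimmer Egr2 probe sets lie in the background range, so their separation is not read as a difference in level. At an unadjusted p under 0.05 in the fit with trend and robust were 5 of 14 probe sets, the dimmer Jund among them, against 15.5% of all. Apart from Ier2, the adjusted p of the members ran from 0.112 to 0.965 over the other 13.

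Within a genotype, single livers differed in these genes. Of the 9 probe sets at or above 4.91, the median of all probe set means, Pogz-/- replicate 1 was the highest of the 3 Pogz-/- livers in 8, against 35.9% of all probe sets as bright, and the highest of all 6 livers in 6, against 13.0%. The exception within Pogz-/- FL was Egr1, highest in replicate 2. Pogz-/- replicate 3 was the lowest of its genotype in 6 of 9, against 33.6%. Pogz+/+ replicate 1 was the lowest of all 6 livers in 6 of 9, against 32.1%, with Junb, Jund and Ier3 as the exceptions. For Fos, Fosb, Junb and both Jun probe sets, Pogz-/- replicate 1 lay 0.41 to 0.56 above the next Pogz-/- liver. In Ier2 the 3 Pogz-/- livers spanned 0.06. No test was made of this order. The 95 other genes of the immediate early response described below were counted at any brightness. Pogz-/- replicate 1 was the highest of its genotype in 32 (33.7%) and the lowest in 32, against 35.5% and 35.1% of all genes. It was the highest in 5 and the lowest in 2 of 11 heat shock genes. Among 15 upstream kinases and factors these counts were 2 and 7. They were 8 and 5 for 19 other early targets, and 9 and 8 for 21 genes of feedback and inhibitors. They were 5 and 3 for 13 other AP-1 subunits and partners, and 3 and 7 for 16 other inducible transcription factors. Whether the brighter of these genes shared the order of the members was not tested.

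**Figure D3:**
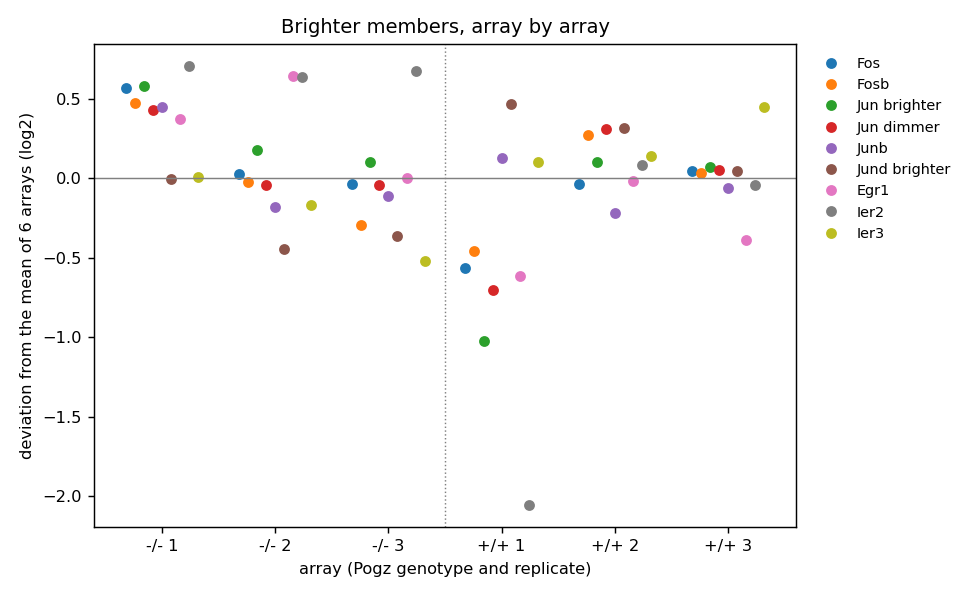
Deviation of each brighter probe set from its own mean over 6 arrays (log2, vertical axis) in each liver, Pogz-/- to the left of the dotted line and Pogz+/+ to the right, 1 colour per probe set. Pogz-/- replicate 1 is the highest of the 6 livers for 6 of the 9 probe sets, and Ier2 in Pogz+/+ replicate 1 is the lowest point.

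Other measures also differed between the Pogz-/- livers. Pogz-/- replicate 1 was the lowest of its genotype for 6 of 6 hepatoblast genes, 6 of 7 macrophage genes and 3 of 3 megakaryocyte genes, and the highest for 6 of 8 granulocyte genes. Over all genes it was the lowest in 35.1% and the highest in 35.5%. It was the highest for 1 and the lowest for 2 of 6 erythroid genes. These counts were 2 and 5 for 10 endothelium and stroma genes, 1 and 2 for 4 mast cell genes, and 1 and 1 for 4 B cell genes. The summed intensity of the hepatoblast list was 16400, 21200 and 25800 in Pogz-/- replicates 1, 2 and 3 and 26800 to 49800 in Pogz+/+ FL. Afp alone made up 64.3% to 75.6% of that sum in Pogz-/- FL and 76.8% to 86.9% in Pogz+/+ FL. Without Afp it was 4010, 5650 and 9180 in Pogz-/- FL and 5560 to 7660 in Pogz+/+ FL, and Alb read 11.00, 11.40 and 12.26 in Pogz-/- FL and 10.11 to 11.35 in Pogz+/+ FL. The sum of the macrophage list was 3080, 4000 and 4150 in Pogz-/- FL and 4340 to 5360 in Pogz+/+ FL. That of the granulocyte list was 53500, 46000 and 48800 in Pogz-/- FL and 46200 to 81800 in Pogz+/+ FL, and without S100a8 and S100a9 it was 17700, 15400 and 17200 in Pogz-/- FL and 12300 to 15200 in Pogz+/+ FL. Of the 8 granulocyte genes, 6 had a positive difference over 6 arrays. Camp and Lcn2, named after their values were seen, were called higher with trend and robust without Pogz+/+ replicate 1 (differences of 1.09 and 0.59, adjusted p = 0.00131 and 0.029). These are 2 of 8, against 1.93% of all genes called higher in that fit. The call of Lcn2 was lost after quantile normalization (adjusted p = 0.0506). S100a8 went the other way with no overlap, at 14.18 to 14.38 in Pogz-/- FL and 14.42 to 15.43 in Pogz+/+ FL. With trend and robust without Pogz+/+ replicate 1, 3 of 6 erythroid genes were called lower, against 1.63% of all genes. They were Klf1, Alas2 and Slc4a1 (adjusted p = 0.0236, 0.00893 and 0.00106), and only Slc4a1 after quantile normalization (0.00688). Over 6 arrays 5 of 6 erythroid genes were lower with no overlap, against 16.3%. Afp was called lower (adjusted p = 0.0128, and 0.343 after quantile normalization) and Kit higher (0.00696, and 0.011). No gene of these lists was at 0 on any array, but every probe set tested was above 0, so this does not show that a gene was expressed. In RNA of a whole liver, fewer cells of a type and less RNA per cell cannot be told apart, and the part of these differences in the levels of the immediate early genes was not tested. Xist, the X inactivation transcript of females, read 12.81, 12.92 and 6.85 in Pogz-/- replicates 1, 2 and 3 and 7.10, 4.81 and 12.91 in Pogz+/+ replicates 1, 2 and 3, so the livers also differed in sex within each genotype. Its part in the levels of the immediate early genes was not tested.

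Beyond the members, 6 lists of the same response held 102 genes, of which 95 were measured, each by its brightest probe set. Creb1 has 6 probe sets, Hspa8 4 and Zfp36l2 3, and the dimmer ones of these and other listed genes are not given here. None passed the test over 6 arrays (lowest adjusted p = 0.388), and 5 had an unadjusted p under 0.05. Arrays did not overlap for 14 genes higher in Pogz-/- FL (14.7%, against 10.8% of all 18193 genes) and for 9 lower (9.47%, against 16.3%). The median difference of the 95 was 0.12, against -0.17 over all genes and -0.48 over the dim background reference genes. The shares and medians of all genes were not matched to the lists for signal level. Without Pogz+/+ replicate 1 and with trend and robust, 5 rose (5.26%, against 1.93% of all genes) and 2 fell (2.11%, against 1.63%), and the medians were 0.11 for the lists and -0.10 for all genes. The fit with constant prior variance on the same 5 arrays called 0 of the 95, so each call named below needs trend and robust as well as leaving out that array.

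Among 21 genes of feedback and inhibitors, Zfp36l2 and Zfp36l1 rose in that fit. Their proteins bind AU-rich elements, which many immediate early mRNAs carry, and hasten the decay of those mRNAs. Zfp36l2 read 10.51, 10.25 and 10.48 in Pogz-/- FL and 8.58, 9.65 and 9.79 in Pogz+/+ FL, with no overlap. It was higher by 1.07 over 6 arrays (adjusted p = 0.41), and by 0.69 without Pogz+/+ replicate 1 (adjusted p = 0.0104, and 0.0157 after quantile normalization). Zfp36l1 read 9.92, 9.92 and 9.80 in Pogz-/- FL and 8.63, 9.23 and 9.41 in Pogz+/+ FL, and was higher by 0.56 without that array (adjusted p = 0.0259, and 0.0449 after quantile normalization). As with Ier2, Pogz+/+ replicate 1 was the lowest liver for both. Socs3, an inhibitor of JAK-STAT signals, read 8.37, 7.62 and 8.19 in Pogz-/- FL and 9.19, 8.57 and 8.62 in Pogz+/+ FL and passed no test (adjusted p = 0.441).

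Among 16 other inducible transcription factors Myc, a driver of cell growth, rose in the same fit. It read 9.39, 9.12 and 9.05 in Pogz-/- FL and 7.15, 8.68 and 8.42 in Pogz+/+ FL. It was higher by 0.64 without Pogz+/+ replicate 1 (adjusted p = 0.0442), a call lost after quantile normalization (adjusted p = 0.0794). Klf2 (difference 0.41 over 6 arrays) and Npas4 (-1.35, dim) were not called. Among 15 upstream kinases and factors Creb1, which encodes CREB, rose by 0.55 in that fit (adjusted p = 0.0384), a call also lost after quantile normalization (adjusted p = 0.0686). Creb1 read 9.87, 10.19 and 10.03 in Pogz-/- FL and 8.74, 9.55 and 9.40 in Pogz+/+ FL. Elk1 and Elk3, ternary complex factors, had differences of -1.75 and -0.51 over 6 arrays and were not called. Elk1 read 2.35 to 2.77 in Pogz-/- FL and 5.72, 2.58 and 4.62 in Pogz+/+ FL, within the range of the background reference genes, so no level is read from it.

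None of the 13 other AP-1 subunits and dimer partners and none of the 19 other early targets was called. Atf4, a stress response factor, read 11.76, 11.70 and 11.59 in Pogz-/- FL and 10.86, 11.44 and 11.41 in Pogz+/+ FL, with no overlap (difference 0.45, adjusted p = 0.508). Fosl2 and Fosl1, FOS relatives that follow FOS in time, had differences of 0.79 and -0.92. Of the early targets, Plk2, a stress induced kinase, had a difference of -2.03 (adjusted p = 0.388), Gadd45b, a stress sensor, -0.61 and Ccn1, a secreted matrix protein, -1.57. Fosl1, Fosl2 and Gadd45b in Pogz+/+ FL, Plk2 in Pogz-/- FL, and Ccn1 but for 6.93 in Pogz+/+ replicate 1 lay within the range of the background reference genes. Plk2 read 7.4, 5.4 and 5.63 in Pogz+/+ FL. Without Pogz+/+ replicate 1 the differences of Plk2 and Ccn1 were -1.4 and -0.78. Fosl1 in Pogz-/- FL also lay within that range.

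Of 11 heat shock genes that cell dissociation is known to induce, Hspe1 rose and Dnajb1 and Hspa8 fell with trend and robust without Pogz+/+ replicate 1. Dnajb1, an HSP40 partner of HSP70, read 10.42, 10.60 and 10.54 in Pogz-/- FL and 11.60, 11.19 and 11.32 in Pogz+/+ FL. It fell by 0.74 in that fit (adjusted p = 0.00394, and 0.00471 after quantile normalization) and did not overlap over all 6 arrays. Hspa8, the steadily expressed HSP70, read 14.13, 14.04 and 14.11 in Pogz-/- FL and 15.83, 14.59 and 14.56 in Pogz+/+ FL, and was lower by 0.49 (adjusted p = 0.0021), and was not called after quantile normalization (adjusted p = 0.309). Hspe1, a mitochondrial chaperonin, was higher by 0.43 (adjusted p = 0.0333). After quantile normalization of those 5 arrays 3 genes of the list were called higher, Hspe1 (0.52), Hspd1 (0.31, adjusted p = 0.0427) and Hsp90aa1 (0.30, adjusted p = 0.0457), and Dnajb1 (-0.74) was called lower. Hspd1 and Hsp90aa1 are named here after their values were seen.

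**Figure D4:**
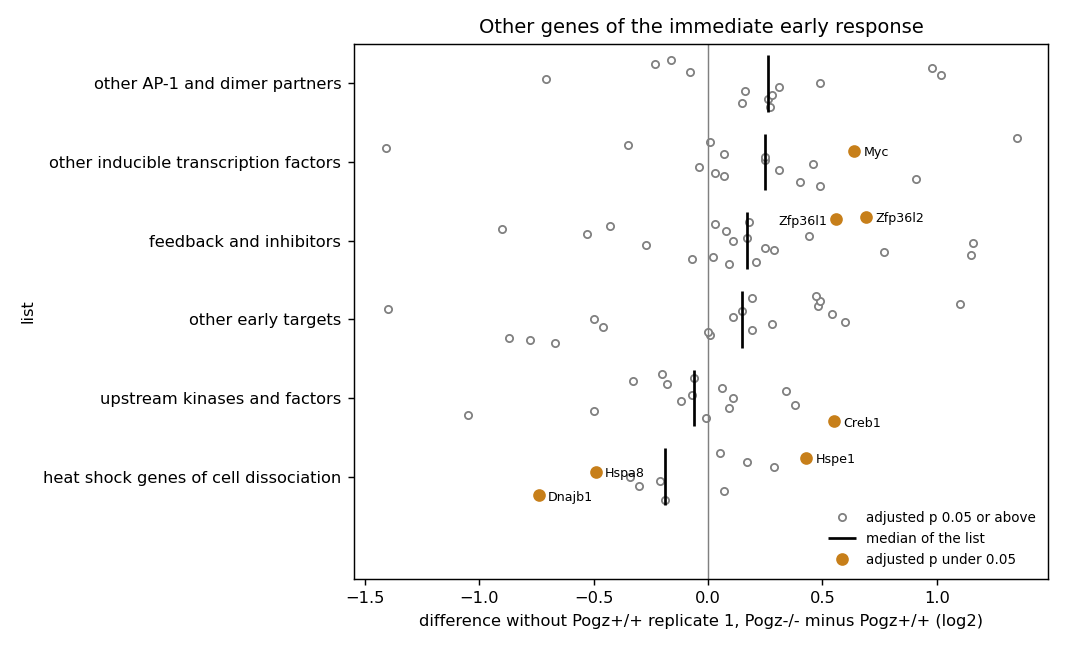
Difference between genotypes without Pogz+/+ replicate 1 (log2, Pogz-/- minus Pogz+/+, horizontal axis) for each of the 95 other genes, by list, with the median of each list as a bar and called genes filled and named. Called genes lie on the right in 4 lists, and Dnajb1 and Hspa8 lie on the left at -0.74 and -0.49.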

How the data were processed

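RNA of 6 E14.5 fetal livers was labelled by 3′ in vitro transcription from about 100 ng and hybridised to Affymetrix mouse genome arrays. The deposited values are linear intensity per probe set; per the submitters' processing notes they come from Affymetrix Expression Console, whose version and algorithm the sources used here do not name, and detection calls were not used here. The authors' scaling left the same 2% trimmed mean on each array. The arrays' number limits the precision, and p-values measure the spread between single livers.

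Log2 was taken with no pseudocount, 64 control probe sets were left out, and limma 3.58.1 (R 4.3.3) was fitted to 45037 probe sets with genotype as the only term; p-values are two-sided and were adjusted by Benjamini-Hochberg across all of them. The script was tested on simulated data. Gene names came from the platform annotation, and gene positions from RefSeq on GRCm38.p6. The members, the gene lists and the fit without Pogz+/+ replicate 1 were chosen with earlier results of these data known. All members are named, and from each other list the 3 genes with the largest moderated t over 6 arrays and any called gene. Fits with trend and robust that leave out another array, the same fit without Pogz+/+ replicate 1 after median centring, and the overlap count without that array were added after seeing the data.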

Additional observations from a re-analysis of the deposited data

How the results depend on the processing

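Over all 6 arrays 0 of 45037 probe sets were called, and the methods' t-test with Benjamini-Hochberg adjustment called 2. With trend and robust the count was 17 over 6 arrays and 1 to 6 when an array other than Pogz+/+ replicate 1 was left out, with 0 members called in these fits. Without Pogz+/+ replicate 1 the fit with constant prior variance called 0 probe sets, 0 members and 0 other early genes. With trend and robust on those 5 arrays the count was 1202, with 1 member (Ier2) and 7 other early genes called. After quantile normalization it was 974, with 1 member and 6 other early genes, and after median centring 2912, with 2 members (Ier2 and Egr1) and 16 other early genes. The difference of Ier2 was 0.65, 0.59 and 0.92 in these 3 fits, and that of Egr1 0.82 in the last.

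Some differences changed sign, from main values of 0.10 for Fosb and Junb, 0.23 for the dimmer Jun, -0.46 for Ier3, and -1.09 and -0.43 for the brighter and dimmer Egr3 probe sets. Without Pogz+/+ replicate 1, Fosb was -0.10 (-0.13 after quantile normalization), the dimmer Jun probe set -0.07 (-0.10) and the dimmer Egr3 probe set 0.16 (0.51, and 0.43 after median centring). The brighter Egr3 probe set was 0.01 in the fit with quantile normalization. Without Pogz-/- replicate 1, Fosb was -0.11 and Junb -0.10. Over 6 arrays the dimmer Egr3 probe set was 0.04 after quantile normalization and 0.03 after median centring, and Ier3 was 0.00 after median centring. None of these sign changes passed the threshold. With each array left out in turn, the difference ran from -0.11 to 0.28 for Fosb, -0.07 to 0.44 for the dimmer Jun, -0.10 to 0.22 for Junb and -1.33 to 0.16 for the dimmer Egr3 probe set.

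With the replicate number as a block 0 probe sets and 0 members were called. Same-numbered livers did not deviate together (correlations of 0.00784, -0.00444 and -0.00503 across probe sets). Livers of unlike number gave -0.0149 to 0.0199. These values show no pairing by number, but with 3 livers per genotype they cannot exclude a shared litter or day. The 5 dim probe sets near the background reference limit what can be read of Egr2 and Egr3.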
